A study of Mus musculus with 19 samples.

Results

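The small leucine-rich proteoglycans are a family of matrix genes, of which 9 were followed here by gene symbol: Dcn (decorin), Bgn (biglycan), Aspn (asporin), Lum (lumican), Fmod (fibromodulin), Prelp, Omd (osteomodulin), Ogn (osteoglycin) and Podn (podocan). Each symbol stood on 1 row of the 36172 genes in the count table, and all 9 were among the 15518 genes that passed the low-count filter. The libraries came from whole ovaries of female mice of the inbred strain C57BL/6 at 3, 6, 9 and 12 months of age. The 3-, 6- and 9-month groups had 5 libraries each and the 12-month group had 4, with no treatment or altered gene named for any group. Nothing in the labels ties a library to its own animal, and p-values therefore measure only the spread between libraries, which may be technical.

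Small leucine-rich proteoglycans are secreted proteins with a core of leucine-rich repeats, which lie along collagen fibrils and set how the fibrils grow and pack. Many carry chains of chondroitin, dermatan or keratan sulfate, and several bind growth factors such as TGF-beta or signal through cell-surface receptors. In the ovary they are made by stromal and theca cells, among others. The family is split into classes by sequence: class I holds Dcn, Bgn and Aspn, class II holds Lum, Fmod, Prelp and Omd, class III holds Ogn, and Podn belongs to class V.

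Of the 9 members 7 had an entry in the RefSeq promoter table (build GRCm38.p6), and Dcn and Lum were not among them. The 250 bases before the start of transcription are shown for Bgn, which rose at 9 months, for Omd, which fell, and for Ogn and Aspn, the neighbours of Omd on chromosome 13 that passed no test. All 4 genes lie on the plus strand, and the windows are chrX:73483351-73483600 for Bgn, chr13:49582212-49582461 for Omd, chr13:49607765-49608014 for Ogn and chr13:49544193-49544442 for Aspn. They read 5′ to 3′ in the direction of transcription, and capitals mark every match to the motifs named after the sequences.
Bgn: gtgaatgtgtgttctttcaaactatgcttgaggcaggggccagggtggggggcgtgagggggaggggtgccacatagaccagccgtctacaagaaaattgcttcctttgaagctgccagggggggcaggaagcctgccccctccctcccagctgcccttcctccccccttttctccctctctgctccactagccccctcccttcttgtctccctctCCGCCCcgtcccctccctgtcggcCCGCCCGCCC
Omd: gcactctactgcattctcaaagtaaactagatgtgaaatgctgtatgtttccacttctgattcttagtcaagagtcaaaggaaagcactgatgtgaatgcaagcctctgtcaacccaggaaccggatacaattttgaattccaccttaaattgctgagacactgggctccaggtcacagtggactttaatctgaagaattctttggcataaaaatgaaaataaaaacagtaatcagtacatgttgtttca
Ogn: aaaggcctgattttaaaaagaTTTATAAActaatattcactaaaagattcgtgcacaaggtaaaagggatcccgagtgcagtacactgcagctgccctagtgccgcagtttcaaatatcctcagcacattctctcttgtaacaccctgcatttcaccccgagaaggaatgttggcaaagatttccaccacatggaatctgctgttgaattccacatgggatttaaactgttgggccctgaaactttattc
Aspn: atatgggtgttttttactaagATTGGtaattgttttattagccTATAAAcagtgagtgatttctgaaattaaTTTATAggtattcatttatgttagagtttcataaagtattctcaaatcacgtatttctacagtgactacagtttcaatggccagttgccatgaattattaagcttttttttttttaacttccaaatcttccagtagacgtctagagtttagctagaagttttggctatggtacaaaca

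Both strands of each window were searched for 6 motifs. They were the TATA box (TATAAA), the box of letters CCAAT bound by NF-Y, the GC box bound by Sp factors (GGGCGG), the site of the Fos and Jun factors (TGANTCA), the short element bound by SMAD factors (CAGAC) and the palindromic estrogen response element. The Bgn window was 64.4% G and C, against a median of 52.4% over 32851 promoter windows, and held 3 GGGCGG matches on the opposite strand. These lay 34 to 29, 10 to 5 and 6 to 1 bases before the start, and the last of them overlap each other. GGGCGG occurred in 32.7% of all windows. The Omd window was 38.4% G and C and held no match to any of the 6 motifs. The Ogn window (42% G and C) held 2 overlapping TATAAA matches, 1 on each strand, at 229 to 224 and 227 to 222 bases before the start. The Aspn window (30% G and C) held 2 TATAAA matches and 1 CCAAT match, motifs found in 12.4% and 33.8% of all windows. Its TATAAA matches lay 207 to 202 and 178 to 173 bases before the start. Only letters were matched in these windows, and whether any match works as a TATA box or other site was not tested. The Fos and Jun site and the estrogen response element were in none of the members' windows and in 6.75% and 0.0639% of all windows, and CAGAC, found in 42.2% of all, occurred in the Fmod and Prelp windows.

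Library totals ran from 10851519 to 14302207 estimated counts. Markers of granulosa cells, theca and steroid-producing cells, oocytes and stroma were present at every age, and so were oviduct markers, whose summed level was 1770 to 6354 CPM. CPM here are counts scaled to library size after TMM correction, which allows for library composition. In 3 libraries (9 months replicates 1 and 2, 12 months replicate 2) the lymph node gene Cr2 was above 5 CPM. Their summed lymph node markers came to 85.5, 127 and 191 CPM, against 2.3 to 11.9 CPM in the other libraries. Replicates are numbered within an age in accession order. The libraries were whole-organ RNA, in which fewer cells of a type and less RNA per cell cannot be told apart.

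Per length of transcript, Dcn was the most abundant member at every age and Podn the least. At 3 months Dcn stood at 411 ± 54 CPM per kb (SD, n = 5), followed by Ogn at 158 ± 16.4, Bgn at 114 ± 10.1 and Lum at 89.1 ± 12. Next in the order were Aspn at 28.4 ± 4.6, Prelp at 21.4 ± 3.58 and Omd at 14.8 ± 3.95 CPM per kb. Fmod at 4.26 ± 0.886 and Podn at 2.98 ± 0.835 CPM per kb closed it. In this order the ranges over the 3-month libraries overlapped between Bgn and Lum, Aspn and Prelp, Prelp and Omd, and Fmod and Podn. Dcn made up 48.6% ± 2.99 (SD, n = 5) of the family's summed level per kb at 3 months, 48.5% ± 1.4 at 6 months, 55% ± 3.53 at 9 months and 52.1% ± 2.27 (n = 4) at 12 months.

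**Figure D1:**
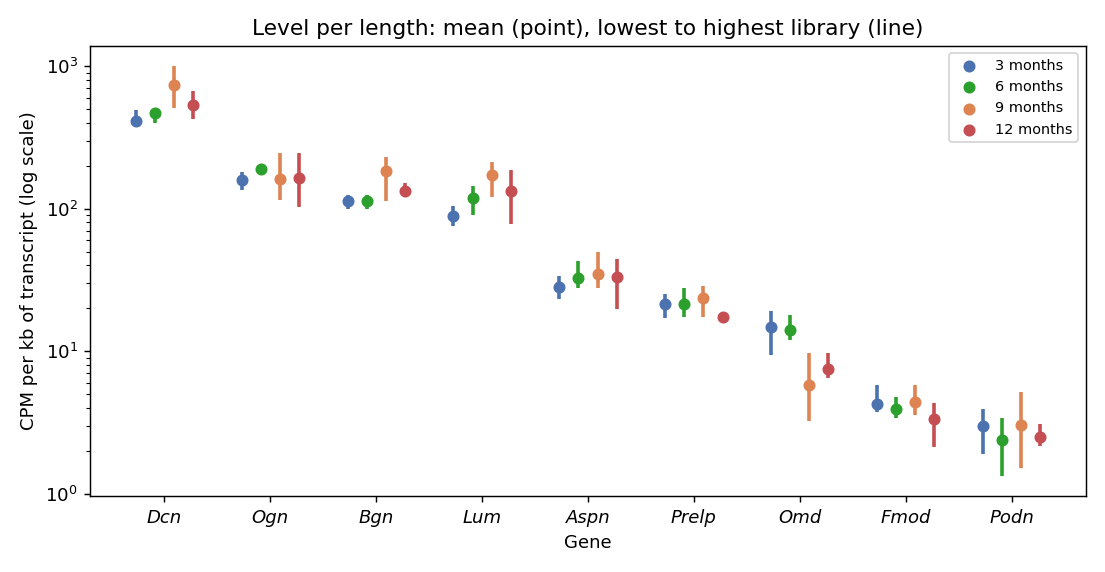
Level of each member in CPM per kb of transcript on a log axis, by age, with the mean of the libraries as a point and the lowest to highest library as a line. Dcn lies on top at each age, at 411 CPM per kb at 3 months and 732 at 9 months, and Podn at the bottom at 2.98 and 3.04.

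The order at 12 months was that at 3 months, and at 6 and 9 months it differed from it only among Ogn, Bgn and Lum. The ranges of Bgn and Lum overlapped at every age. Omd stayed after Prelp and before Fmod at every age. It held 1.77% ± 0.504 of the family sum at 3 months and 0.462% ± 0.26 at 9 months, where its range overlapped that of Fmod. Ogn, the next after Dcn at 3 and 6 months, held 18.7% ± 1.2 and 19.7% ± 0.932 of the sum there, 12.5% ± 4.51 at 9 months and 15.6% ± 2.73 at 12 months, when it was again the next after Dcn. Its own level was 158 ± 16.4 CPM per kb at 3 months and 161 ± 54.3 at 9 months. At 9 months the mean level of Bgn was 185 ± 52.4 and of Lum 173 ± 38.9 CPM per kb, and the ranges of Bgn and Lum and of Lum and Ogn overlapped.

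Between 3 and 9 months Dcn, Lum and Bgn rose and Omd fell, and the other 5 members passed no test. That is 4 of 9 members called at an adjusted p under 0.05 (edgeR's quasi-likelihood test, Benjamini-Hochberg over all 15518 genes), where 25.0% of all genes tested were called in this comparison. Of all genes 11.3% rose and 13.6% fell, against 3 and 1 of the 9. The median log2 change of the members was 0.15 and that of all genes 0.01.

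Dcn encodes decorin, which carries a single chondroitin or dermatan sulfate chain, binds type I collagen and can sequester TGF-beta. Its level in the 3-month libraries was 768, 663, 659, 870 and 654 CPM. The 6-month libraries held 851, 862, 873, 815 and 704 CPM. At 9 months the libraries read 1306, 1747, 1314, 1176 and 892 CPM, each above every 3-month library. At 12 months they read 1181, 969, 868 and 751 CPM, which overlaps both younger groups. The means were 723 ± 95 CPM (SD, n = 5) at 3 months and 1287 ± 309 CPM (n = 5) at 9 months, a log2 change of 0.83 ± 0.15 (SE) with an adjusted p of 0.000713 by edgeR. At 12 months the mean was 942 ± 182 CPM (n = 4) and the log2 change from 3 months 0.38 ± 0.15, with an adjusted p of 0.0787 by edgeR. That value lay close to the threshold and passed it when 3 months replicate 4, 9 months replicate 2, 9 months replicate 5 or 12 months replicate 4 was left out, with adjusted p of 0.0371 to 0.0466. It was also passed by limma-voom with sample weights (0.41, adjusted p = 0.0406) and with the length and GC correction (0.46, adjusted p = 0.0464). Other settings went the other way in edgeR. The change was 0.20 with oviduct markers as a covariate (adjusted p = 0.447) and 0.16 with smooth muscle markers (adjusted p = 0.654). Without 12 months replicate 1 it was 0.25 (adjusted p = 0.261).

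Lum encodes lumican, a keratan sulfate proteoglycan that limits the thickness of collagen fibrils. Its 3-month libraries held 258, 223, 184, 231 and 195 CPM, and its 6-month libraries 301, 351, 295, 275 and 221 CPM. The 9-month libraries held 518, 519, 406, 379 and 297 CPM, again all above the highest 3-month library. The 12-month libraries held 458, 324, 337 and 190 CPM, and the lowest of these fell within the 3-month range. The log2 change was 0.96 ± 0.19 at 9 months (adjusted p = 0.00209 by edgeR) and 0.58 ± 0.20 at 12 months (adjusted p = 0.0477 by edgeR). At 6 months it was 0.40 ± 0.19 with an adjusted p of 0.509 by edgeR, where 4 of 5 libraries lay above the highest 3-month library. The call at 12 months was lost when any of 12 single libraries was left out, with the lowest change, 0.37 and an adjusted p of 0.192, without 12 months replicate 1.

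Bgn encodes biglycan, the closest relative of decorin, which carries a pair of such chains and, when free, can signal through toll-like receptors. Levels were 268, 299, 273, 239 and 297 CPM at 3 months and 294, 250, 243, 288 and 302 CPM at 6 months. At 9 months they were 352, 512, 554, 545 and 274 CPM, so 4 of 5 libraries lay above all younger ones and replicate 5 lay among them. At 12 months they were 299, 365, 315 and 315 CPM. The log2 change at 9 months was 0.70 ± 0.15 (adjusted p = 0.00281 by edgeR), from a mean of 275 ± 24.5 to 447 ± 127 CPM. At 12 months it was 0.23 ± 0.16 with an adjusted p of 0.306 by edgeR.

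Omd encodes osteomodulin, a keratan sulfate proteoglycan best known from bone and tooth, and was the member that fell. Its libraries held 43.4, 28.5, 34.3, 21.1 and 39.6 CPM at 3 months and 27, 29.7, 29.2, 31.7 and 40.5 CPM at 6 months. At 9 months they held 21.9, 7.56, 7.3, 10.9 and 17.3 CPM, and at 12 months 21.8, 15.8, 15 and 14.5 CPM. In each older group the overlap with 3 months came from replicate 1 alone, which lay just above the lowest 3-month library. The mean was 33.4 ± 8.88 CPM at 3 months, 13 ± 6.41 CPM at 9 months and 16.8 ± 3.4 CPM at 12 months. The log2 change was -1.36 ± 0.27 at 9 months (adjusted p = 0.00156 by edgeR) and -0.99 ± 0.28 at 12 months (adjusted p = 0.0188 by edgeR). Without 12 months replicate 3 the change at 12 months was -0.94 with an adjusted p of 0.0575.

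**Figure D2:**
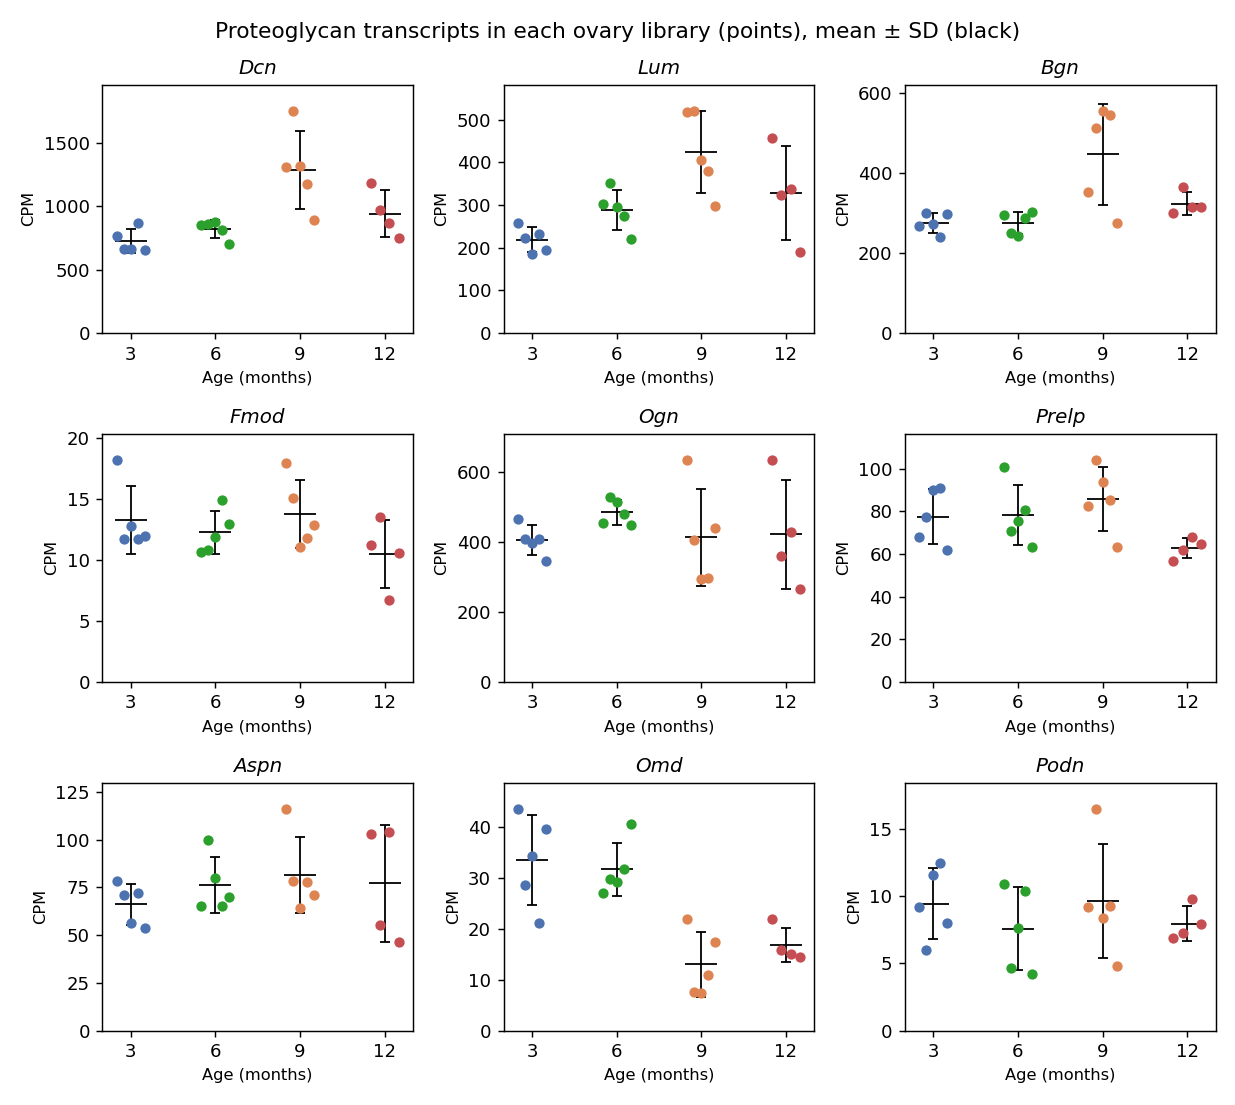
CPM of each member in every library by age in months (points, coloured by age), with the mean and SD of each age in black, each panel on its own linear axis from 0. The 9-month points of Dcn and Lum lie above all 3-month points, and those of Omd reach down to 7.3 CPM.

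All 4 calls at 9 months held with each library left out in turn. The log2 change ranged from 0.71 to 0.95 for Dcn, 0.89 to 1.07 for Lum, 0.60 to 0.85 for Bgn and -1.62 to -1.20 for Omd. Without the 3 libraries with lymph node transcripts the changes were 0.66, 0.74, 0.75 and -1.48, with adjusted p of 0.00569, 0.0304, 0.00692 and 0.0025 by edgeR. The groups did not overlap between 3 and 9 months for 2 of 9 members, Dcn and Lum, where 14.9% of all genes had groups apart in this comparison.

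Smooth muscle markers rose in the same comparison. Of 6 such markers Acta2 was listed at 0 in every library, and of the 5 tested 4 rose between 3 and 9 months. Their summed level was 1078 to 1689 CPM at 3 months, 1178 to 2248 at 6 months, 1749 to 3229 at 9 months and 1623 to 3535 at 12 months. With the mean log2 level of these markers as a covariate, 0 of 9 members passed the test at 9 months. The log2 changes in that edgeR fit were 0.58 for Dcn (adjusted p = 0.0765), 0.47 for Lum (0.196), 0.76 for Bgn (0.0522) and -1.26 for Omd (0.0609). Without the covariate they were 0.83, 0.96, 0.70 and -1.36. Calls were lost outside the family too: of 22 genes named from the lists below and called at 9 months, 18 lost the call. The share of all genes called in that fit is not given here. The covariate itself differs between the ages, and its part and that of age cannot be told apart.

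Stromal fibroblasts are known to make decorin and lumican. Of 10 markers of these cells 4 rose and 1 fell between 3 and 9 months, all were detected in every library, and the summed level was 736 to 785 CPM at 3 months and 781 to 1148 CPM at 9 months. At 12 months the sum was 727 to 821 CPM, with 2 risen and 2 fallen. Endothelial markers rose in 6 of 6 cases between 3 and 9 months, from a sum of 288 to 325 CPM to one of 417 to 488 CPM. Oocyte markers fell in 6 of 6, from 187 to 291 CPM to 11.4 to 79.5 CPM, and 2 of 8 granulosa markers and 3 of 6 markers of theca and steroid-producing cells fell. Of 6 macrophage markers 5 rose, with the median of the sum at 233 CPM at 3 months and 412 CPM at 9 months, and 3 of 6 surface epithelium and 3 of 5 mesothelium markers rose. The part of these cell types in the members' changes was not tested.

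At 12 months Lum rose and Omd fell, and the other 7 members passed no test, a count of 2 of 9 where 22.4% of all genes were called against 3 months. No member had groups that stood apart, where 16.5% of all genes did. Without the lymph node libraries Lum stood at 0.59 (adjusted p = 0.0631) and Omd at -0.97 (adjusted p = 0.0159), by edgeR. Neither passed with the oviduct markers as a covariate (0.40 and -0.70) or with the smooth muscle markers (0.14 and -0.90). Along age as a straight line over the 4 groups, 3 of 9 members passed, where 29.5% of all genes did. Given as the change over 9 months, Dcn rose by 0.63 ± 0.21 (log2, adjusted p = 0.0309), Lum rose by 0.78 ± 0.25 (adjusted p = 0.0221) and Omd fell, at -1.29 ± 0.32 (adjusted p = 0.00583), all by edgeR. The Dcn trend was lost without 3 months replicate 2, 3 or 5 or 12 months replicate 1 (adjusted p = 0.0514 to 0.067), and the Lum trend without 3 months replicate 3 or 5 or 12 months replicate 1 (adjusted p = 0.0506 to 0.0524). Bgn was at 0.50 ± 0.22 (adjusted p = 0.0864 by edgeR), and it was called by DESeq2 (adjusted p = 0.045) and with the oviduct covariate (0.65, adjusted p = 0.037), under which the Dcn trend was lost (0.61, adjusted p = 0.0612). With the smooth muscle covariate none of the 3 trends passed (Dcn 0.15, Lum 0.10, Omd -0.96). Allowing any pattern over the 4 ages, Dcn, Lum, Bgn and Omd passed, 4 of 9, where 29.0% of all genes passed. Without the lymph node libraries Dcn, Bgn and Omd did, and with the smooth muscle covariate 0 of 9. The share of all genes in those fits is not given here.

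**Figure D3:**
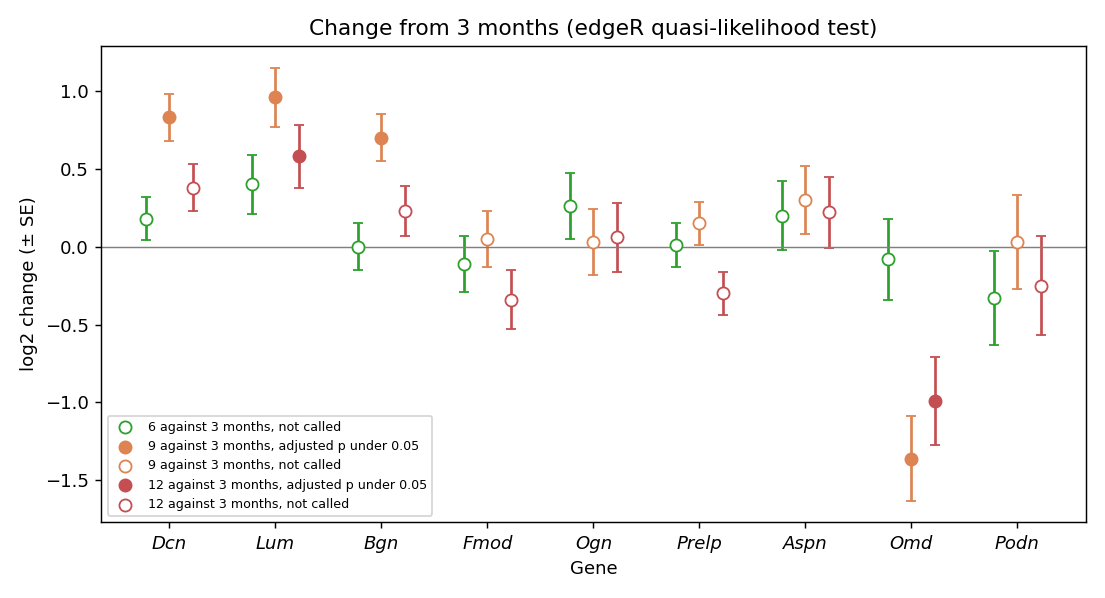
Log2 change of each member from 3 months (edgeR fit, ± SE) at 6, 9 and 12 months, with filled points for an adjusted p under 0.05. Filled points are Dcn, Lum, Bgn and Omd at 9 months and Lum and Omd at 12 months, and no 6-month point is filled.

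Between 3 and 6 months edgeR called 0 of 9 members, with 0 at an unadjusted p under 0.05, and called 0.0193% of all genes. DESeq2 and limma-voom also called 0 of the 9. Between 9 and 12 months edgeR called 0 of 9 members and 0% of all genes, and neither DESeq2 nor limma-voom called a member. Here 3 members had an unadjusted p under 0.05, as did 2152 of the 15518 genes. They were Dcn at -0.45 ± 0.15, Bgn at -0.47 ± 0.16 and Prelp at -0.45 ± 0.14 (log2, adjusted p = 0.221, 0.217 and 0.19 by edgeR). Without 9 months replicate 5 these 3 passed, at -0.57, -0.61 and -0.55 (adjusted p = 0.0405, 0.0144 and 0.0453 by edgeR). The share of all genes called in that fit is not given here, and whether the drop is particular to these members was not tested.

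The remaining members passed no test between any of the ages. Ogn encodes osteoglycin, also called mimecan, and lies beside Omd. Its libraries read 466, 409, 397, 410 and 347 CPM at 3 months and 455, 528, 514, 480 and 450 CPM at 6 months. At 9 months they read 634, 405, 294, 296 and 441 CPM, and at 12 months 634, 361, 429 and 265 CPM. The older groups thus reached both above and below the young ones, with a coefficient of variation of 33.6% at 9 months and 37% at 12 months against 10.4% at 3 months and 7.17% at 6 months. The log2 change was 0.03 ± 0.21 at 9 months and 0.06 ± 0.22 at 12 months, with adjusted p of 0.937 and 0.88 by edgeR, and its sign differed between processing settings.

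Aspn encodes asporin, which has a run of aspartate residues and no sugar chain site of the usual kind. Its levels ranged from 53.9 to 78.6 CPM at 3 months, 65.1 to 100 at 6 months, 64.3 to 116 at 9 months and 46.4 to 104 at 12 months. The log2 change was 0.30 ± 0.22 at 9 months (adjusted p = 0.33) and 0.22 ± 0.23 at 12 months (adjusted p = 0.521), by edgeR. Prelp, a basement membrane and cartilage protein without the usual chains, held 61.7 to 90.8 CPM at 3 months and 56.8 to 68.1 CPM at 12 months. Its log2 change at 12 months was -0.30 ± 0.14 (adjusted p = 0.139 by edgeR). Fmod encodes fibromodulin, which binds the same site on collagen as lumican. It held 11.7 to 18.2 CPM at 3 months and 6.68 to 13.5 CPM at 12 months, a log2 change of -0.34 ± 0.19 (adjusted p = 0.208 by edgeR). Podn, known for limiting the growth of smooth muscle cells, held 5.98 to 12.5 CPM at 3 months and 6.88 to 9.79 CPM at 12 months (log2 change -0.25 ± 0.32, adjusted p = 0.614 by edgeR).

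Ratios between members of 1 library do not depend on how libraries are scaled, and 2 pairs were compared at each older age against 3 months. Lumican and fibromodulin compete for collagen, and the log2 ratio of Lum to Fmod was 3.83, 4.26, 3.84, 4.30 and 4.02 at 3 months. At 9 months it was 4.85, 5.10, 5.19, 5.01 and 4.53, each above every 3-month library. The means were 4.05 ± 0.22 and 4.94 ± 0.26 (SD, n = 5 each), a difference of 0.89 with an exact two-sided permutation p of 0.00794, the smallest that 252 splits allow, and 0.0476 after Benjamini-Hochberg adjustment over the 6 tests. At 12 months the ratio was 5.36, 4.59, 5.66 and 4.17, also 0.89 above the 3-month mean (exact permutation p = 0.0476, adjusted 0.111). At 6 months the difference was 0.50 (exact permutation p = 0.0556, adjusted 0.111). The pairs were chosen with earlier results of these data known. At 9 months the log2 change of Fmod alone was 0.05 ± 0.18 and that of Lum 0.96 ± 0.19. The ratio thus largely repeats the rise of Lum in the same libraries and is no separate evidence. The log2 ratio of Dcn to Bgn was 1.39 ± 0.31 at 3 months and 1.54 ± 0.34 at 9 months, a difference of 0.16 (exact permutation p = 0.444, adjusted 0.492). With the 3 lymph node libraries left out it was -0.03. At 6 and 12 months that ratio differed by 0.19 and 0.14 (exact permutation p = 0.317 and 0.492). Leaving out 12 months replicate 1 gave -0.01 at 12 months.

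The 9-month libraries split into those with high Bgn and low Omd and the others. Replicates 2, 3 and 4 had the highest Bgn (512 to 554 CPM) and the lowest Omd (7.3 to 10.9 CPM) of all 19 libraries. Replicates 1 and 5 had Bgn at 352 and 274 CPM and Omd at 21.9 and 17.3 CPM. In those same replicates 2, 3 and 4 the summed oocyte markers were 11.4, 55.3 and 36.4 CPM, against 65.5 and 79.5 CPM in replicates 1 and 5. The summed granulosa markers were 867, 1421 and 1271 CPM against 1715 and 2241 CPM, and the summed stromal markers 1148, 1147 and 1030 CPM against 981 and 781 CPM. The summed oviduct markers also stood apart, at 6354, 3647 and 3241 CPM against 2166 and 3084 CPM. Other marker sums did not follow the split. Those of smooth muscle were 2699, 3229 and 2283 CPM against 2860 and 1749 CPM, and those of endothelium 443, 485 and 441 CPM against 488 and 417 CPM. Macrophage, theca and the remaining marker sums overlapped in the same way. The part of any of these cells in the split was not tested.

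**Figure D4:**
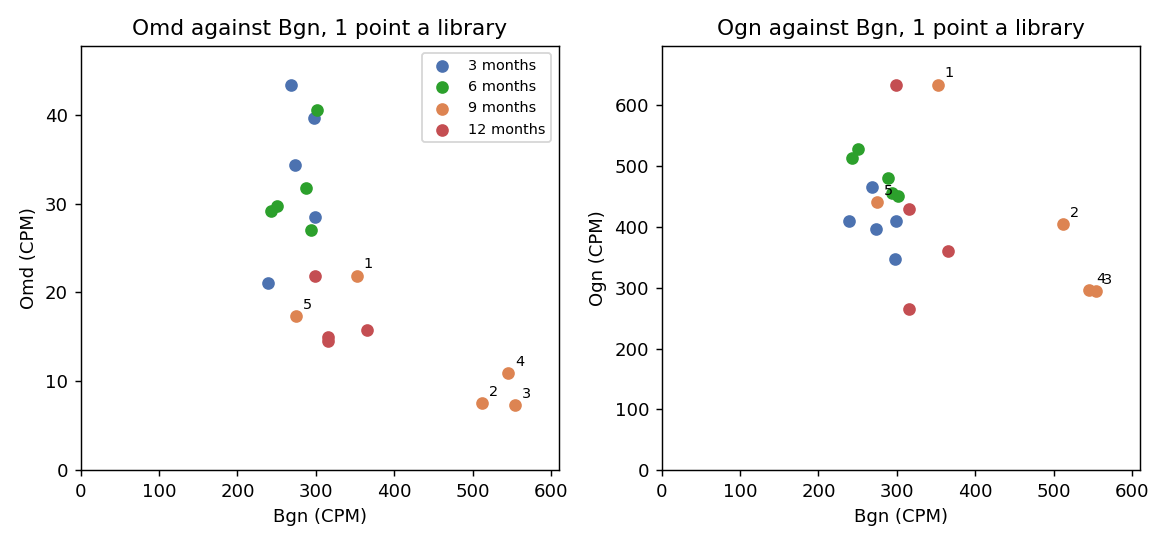
Omd (left) and Ogn (right) against Bgn, all in CPM, with 1 point a library, coloured by age, and the replicate number beside each 9-month point. Replicates 2, 3 and 4 at 9 months lie apart at 512 to 554 CPM of Bgn, with 7.3 to 10.9 CPM of Omd.

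Over the 19 libraries Pearson's r of log2 CPM between Bgn and Omd was -0.80 (Spearman's rho -0.64), and -0.52 once each age's mean was removed. Between Dcn and Omd it was -0.77 (rho -0.71), and -0.37 within age. Between Lum and Omd it was -0.57 (rho -0.56), and -0.01 within age. These and the values that follow describe the same 19 libraries, which share age, depth and cell makeup. The highest r among the pairs was that of Dcn and Lum, with r = 0.92 (rho 0.90) and 0.83 within age. Lum was the 11th of 14671 genes in likeness to Dcn, and Dcn the 4th for Lum. Ogn and Aspn followed with r = 0.73 (0.81 within age) and Dcn and Bgn with 0.71 (0.27 within age). Prelp and Podn (0.82 within age) and Lum and Aspn (0.75 within age) each stood at 0.69.

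**Figure D5:**
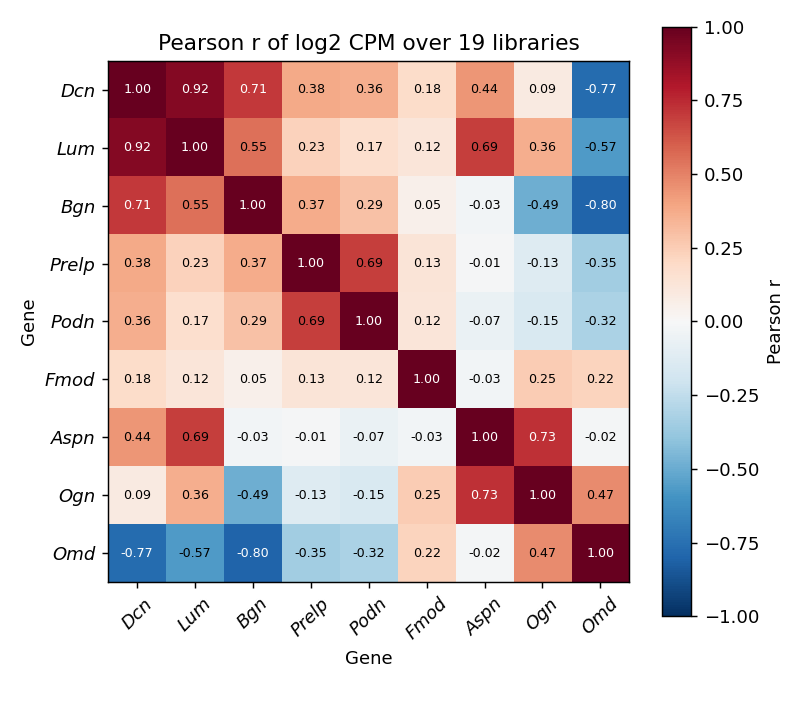
Pearson's r of log2 CPM over the 19 libraries for every pair of the 9 members, printed in each square and coloured from blue (-1) to red (1). Dcn and Lum stand at 0.92, and Omd is furthest below 0 with Dcn (-0.77), Bgn (-0.80) and Lum (-0.57).

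Pairs that sit side by side in the genome did not all share these patterns. Coordinates are on GRCm38, the assembly that mm10 names. Dcn (chr10:97479500-97518163) and Lum (chr10:97565501-97572703) are next to each other, followed by Kera and Epyc, which reached at most 2 and 4 estimated counts in a library and were not tested. Prelp (chr1:133910304-133930102) and Fmod (chr1:134037254-134048280) are neighbours too, with r = 0.13 over the 19 libraries. Aspn (chr13:49544443-49567565), Omd (chr13:49582462-49592612) and Ogn (chr13:49608015-49624501) follow each other on the plus strand, and r was 0.73 for Aspn and Ogn, 0.47 for Ogn and Omd and -0.02 for Aspn and Omd. Bgn (chrX:73483601-73495936) and Podn (chr4:108014793-108031954) have no other member nearby. Ecm2, a further gene of the group on chromosome 13, stood at 45.3 ± 2.31 CPM at 3 months and 55.2 ± 9.31 CPM at 9 months (log2 change 0.29 ± 0.12, adjusted p = 0.0952 by edgeR).

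All 3 chromosome 13 members lie inside Cenpp (chr13:49464023-49652785, minus strand), which encodes a centromere protein. Cenpp also fell, from 8.35 ± 1.75 CPM at 3 months to 3.12 ± 1.01 CPM at 9 months (log2 change -1.42 ± 0.21, adjusted p = 0.000204 by edgeR). At 12 months it was 4.06 ± 0.456 CPM (-1.04 ± 0.22, adjusted p = 0.00391 by edgeR). This overlap is one of whole gene spans, and whether exons are shared was not examined. The sources used here do not give whether counting used strand. How far reads of Omd and of Cenpp were kept apart is thus not known. Ogn and Aspn lie in the same gene and passed no test. At 3 months they stood at 406 ± 42.1 and 66.2 ± 10.7 CPM, levels at which a change of the size of Cenpp's could go unseen. Whether Cenpp reads have a part in the fall of Omd was not tested. Podn overlaps Scp2 on the same strand, which encodes a sterol carrier and stood at 271 ± 27 CPM at 3 months and 257 ± 29.4 CPM at 12 months (log2 change -0.08 ± 0.11, adjusted p = 0.638 by edgeR).

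Across all genes with a mean of at least 1 CPM, the gene most like Dcn over the 19 libraries was Dpt, which encodes dermatopontin, a matrix protein that binds decorin (r = 0.97, rho 0.94). Serping1, the C1 inhibitor, and Spon2, a matrix protein, came next at 0.95 and 0.94. Dpt was also on the stromal marker list, and it stood at 59.5 ± 14.7 CPM at 3 months and 171 ± 68.4 CPM at 9 months. Lum was most like Eid1 (0.96), Rhoj (0.93) and Spon2 (0.93), and Bgn most like Mxra8 (0.96), a cell adhesion molecule, Tyk2 (0.90) and Tbc1d22a (0.90). Omd was most like Arxes2, Mapre1 and Hnrnpk, each at 0.95. Ogn was most like Tulp2 (0.88), Prelp most like Abca8a (0.87) and Aspn most like Pi15 (0.85), a secreted protease inhibitor. Fmod and Podn had weaker leaders, Zfp770 at 0.81 and Ebf1, a transcription factor, at 0.77.

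For the gene lists that follow, the share of all genes called against 3 months was 25.0% at 9 months and 22.4% at 12 months. Of 9 further genes of the leucine-rich proteoglycan group, 7 were tested and 1 rose between 3 and 9 months, with a median log2 change of 0.74 over the 7. That gene was Chad, which encodes chondroadherin, at 3.68 ± 1.01 CPM at 3 months and 7.65 ± 2.69 CPM at 9 months (log2 change 1.05 ± 0.30, adjusted p = 0.0164 by edgeR). The Chad call at 9 months was lost without 9 months replicate 2, with a change of 0.84, and 2 genes of the list rose without 3 months replicate 4 or 9 months replicate 5. At 12 months its change was 0.96 ± 0.32 (adjusted p = 0.037 by edgeR), a call lost in 6 of the 19 fits with 1 library left out and under 6 other settings, with 0.21 under the oviduct covariate. Tsku, the most abundant of the list after Ecm2, stood at 24.8 ± 3.13 CPM at 3 months and 21.4 ± 1.11 CPM at 9 months (adjusted p = 0.134 by edgeR).

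The members bind collagens and lie beside their partners in the matrix. Of 17 such genes tested, 13 rose and 1 fell between 3 and 9 months, with a median log2 change of 0.69 against 0.01 for all genes. At 12 months 8 rose and 1 fell, with a median of 0.33, and 4 rose without 12 months replicate 3. Col6a2 rose from 236 ± 3.62 to 381 ± 67.3 CPM at 9 months (log2 change 0.69 ± 0.12, adjusted p = 0.000577 by edgeR) and Col6a1 by 0.50 ± 0.07 (adjusted p = 0.000114 by edgeR), both chains of type VI collagen. Fn1, fibronectin, rose by 0.57 ± 0.14 (adjusted p = 0.00616 by edgeR). The collagen that fell was Col11a1, a minor chain that nucleates fibrils, from 145 ± 26 to 42.4 ± 10.7 CPM (log2 change -1.77 ± 0.20, adjusted p = 3.44e-05 by edgeR). Its change at 12 months was -1.70 ± 0.21, and it held its call in every fit with 1 library left out. With the smooth muscle covariate Col6a1 and Col11a1 kept their calls at 9 months, and Col6a2 (0.42) and Fn1 (0.34) did not.

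The sugar chains are built by sets of enzymes that start, extend and sulfate them. Of 6 genes tested for the linker that joins chain to protein, 1 passed at 9 months, Fam20b, a xylose kinase, which fell, at -0.20 ± 0.05 (adjusted p = 0.00867 by edgeR). A further gene rose without 9 months replicate 2. Of 16 genes of chondroitin and dermatan sulfate synthesis 4 rose and 2 fell, with a median of 0.02, and the 4 became 2 when any of 6 single libraries was left out, and the 2 became 1 when any of 10 was. Chsy1, a chondroitin synthase, fell from 97.8 ± 8.69 to 65.8 ± 18.6 CPM (log2 change -0.57 ± 0.14, adjusted p = 0.00554 by edgeR). Chpf2, a partner of that enzyme, rose at 12 months by 0.43 ± 0.09 (adjusted p = 0.00444 by edgeR) and was at 0.19 ± 0.09 at 9 months. Of 7 genes of keratan sulfate synthesis 1 rose and 1 fell at 12 months. B3gnt7, which extends keratan sulfate, rose from 9.86 ± 1.22 to 25.7 ± 10.8 CPM (log2 change 1.38 ± 0.28, adjusted p = 0.00333 by edgeR), while B4galt1, the galactose transferase, changed by -0.24 ± 0.06 (adjusted p = 0.0117 by edgeR).

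Of 13 proteases that can cut members of the family, 4 rose and 1 fell between 3 and 9 months, with a median of 0.28. Of all genes 11.3% rose and 13.6% fell. Without 9 months replicate 4 or 12 months replicate 1, 2 fell. Mmp3, stromelysin 1, which cleaves decorin, rose from 1.3 ± 0.75 to 6.62 ± 4.17 CPM (log2 change 2.34 ± 0.45, adjusted p = 0.00119 by edgeR), and at 12 months it was at 1.06 ± 0.47 (adjusted p = 0.113 by edgeR). Adamts5, an aggrecanase, fell from 45.9 ± 2.12 to 32 ± 3.89 CPM (log2 change -0.52 ± 0.15, adjusted p = 0.0162 by edgeR). At 12 months 1 of the 13 passed, Adamts5, at -0.48 ± 0.16 (adjusted p = 0.0351 by edgeR), a call lost in 7 fits with 1 library left out.

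Of 14 receptors named for these proteoglycans, 6 rose and 2 fell at 9 months, where 25.0% of all genes were called. Without 9 months replicate 2, 3 rose. Itga2, a subunit of a collagen-binding integrin to which decorin also binds, fell from 29.4 ± 8 to 9.5 ± 3.59 CPM (log2 change -1.63 ± 0.23, adjusted p = 0.000153 by edgeR). Igf1r, a receptor that decorin can occupy, fell from 261 ± 12.9 to 180 ± 11.5 CPM (-0.54 ± 0.09, adjusted p = 0.000643 by edgeR). Cd44 rose from 40.2 ± 6.45 to 66.4 ± 20.1 CPM (0.73 ± 0.19, adjusted p = 0.0105 by edgeR), and it was at 0.41 and not called without the 3 lymph node libraries. Kdr, the VEGF receptor and a marker of endothelium, rose by 0.36 ± 0.09 (adjusted p = 0.00578 by edgeR).

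Of 10 growth factors bound by the family and tested, 3 passed at 12 months, where 22.4% of all genes did, and each of the 3 rose. They were Pdgfa (log2 change 0.46 ± 0.11, adjusted p = 0.00825), Bmp4 (0.59 ± 0.15, adjusted p = 0.00897) and Tgfb2 (0.66 ± 0.18, adjusted p = 0.0148), by edgeR. The Tgfb2 call was lost without 12 months replicate 3, with a change of 0.52, and with the oviduct covariate. At 9 months 2 of the 10 rose, and that count was 0 or 1 in 8 of the 19 fits with 1 library left out. Bmp4 was then at 0.25 ± 0.14 (adjusted p = 0.204) and Tgfb2 at 0.32 ± 0.17 (adjusted p = 0.182), by edgeR. Of 5 TGF-beta receptors 3 rose at 9 months, Tgfbr2 (0.49 ± 0.10), Eng (0.46 ± 0.11) and Acvrl1 (0.39 ± 0.09), with adjusted p of 0.00143, 0.00424 and 0.00473 by edgeR. Eng and Acvrl1 are mainly endothelial genes, and the endothelial markers rose in the same comparison. The part of endothelial cells in the rise of these receptors was not tested.

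Of 21 other proteoglycans tested, large or bound to the cell surface, 3 rose and 3 fell at 12 months, with a median of 0.06. Of all genes 22.4% were called there. Prg4, lubricin, fell from 5.8 ± 1.21 to 1.6 ± 0.571 CPM (log2 change -1.85 ± 0.32, adjusted p = 0.00143 by edgeR) and Sdc2, a syndecan, from 178 ± 5.9 to 143 ± 16.6 CPM (-0.32 ± 0.07, adjusted p = 0.00344 by edgeR). Srgn, the proteoglycan of blood cell granules, rose by 0.88 ± 0.27 (adjusted p = 0.0281 by edgeR) and was at 0.43 and not called without 12 months replicate 2, which is a lymph node library, and the call was also lost without 3 months replicate 2, 3 or 4. The count of 3 that rose was 1 without 3 months replicate 2 or 12 months replicate 3, and 0 without 3 months replicate 3.

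The naming rule took 22 genes from these lists that were called at 9 months, and 4 of them (Col11a1, Col6a1, Fam20b and Itga2) kept the call with the smooth muscle covariate. Of the 18 that lost it, 7 still had at least 80% of their log2 change, among them Mmp3 (2.21 with the covariate, 2.34 without), Eng (0.48 and 0.46) and Srgn (1.06 and 0.91). In Acvrl1 it went from 0.39 to 0.17. Of 27 such genes called at 12 months 5 kept the call (Col11a1, Chpf2, Itga2, Igf1r and Prg4). Of the 22 that lost it 9 still had at least 80% of their change, such as Bmp4 (0.54 and 0.59) and Sdc2 (-0.30 and -0.32). The rest of the 22 shrank further, among them B3gnt7 (0.57 and 1.38), Tgfb2 (0.28 and 0.66) and Agrn, a large proteoglycan (0.15 and 0.33). With the oviduct covariate all 22 kept their call at 9 months, and 16 of 27 did at 12 months. Among the 11 that lost it were Chad (0.21), Fn1 (0.35), Tgfbr2 (0.34), Cd44 (0.50) and Tgfb2 (0.55).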

How the data were processed

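Frozen ovaries were the source of the RNA, and the library kit keeps the strand, per the labels' protocols. Per the submitters' processing notes reads were placed on mm10. The aligner and the counter were not given in the sources used here. The authors deposited raw values that are estimated counts, per the file headers, with fractions: 17.4% to 21.4% of the nonzero values in a library were whole within 1e-08. The authors also deposited log2 values, centred on each gene's 3-month median by a normalization not given in the sources used here. They served as an alternative only. A table of 13869 genes holds a part of those values. Each table has 1 column that matches no sample (3 in all), and these were not used here.

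Libraries were assigned to ages by the age label and to columns by title. The labels give no batch. Pairs of libraries of 1 age differed beyond sampling noise (chi-square per degree of freedom 5.02 to 37.97), so none was merged. Estimated counts were rounded to whole numbers and tested with edgeR 4.0.16 (R 4.3.3): TMM, a low-count filter (minimum count 10, minimum total 15), the robust quasi-likelihood test on all 19 libraries, Benjamini-Hochberg adjustment over 15518 genes, threshold 0.05. SEs were taken from the F statistic. Log2 CPM for correlations used a prior count of 2. The steps were tested on simulated data with known changes. RefSeq names matched 32891 genes, and transcript lengths came from GENCODE. Ratios were tested by exact two-sided permutation.

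The 9 members, the gene lists and the tests were chosen with earlier results of these data known. All members are named. From each list the rule takes up to 4 genes with the smallest p among those called between 3 and 12 months or along age. With none called it takes the 2 most abundant. For each member it takes the 3 genes most like it, with predicted genes and genes overlapping the member left out. The text prints a part of these, and Tsku and the genes that neighbour or overlap a member were named after their values were seen. Alternatives were DESeq size factors, DESeq2 1.42.0, limma-voom with sample weights and limma-trend (limma 3.58.1), no filter, a filter of CPM above 1 in 4 libraries, only the ages compared, leaving out libraries with Cr2 over 5 CPM, oviduct or smooth muscle markers as a covariate, a length and GC correction (both known for 99.1% of genes), an adjusted p under 0.01, and each library left out.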

Additional observations from a re-analysis of the deposited data

Results flagged for a closer look

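In 36 groups of libraries (9 members at 4 ages), 2 held a library whose gap to its nearest neighbour was large for the group's range; chance gives about 1 in 20 groups. Fmod at 3 months stood at 18.2 CPM in replicate 1, against 11.7 to 12.8 CPM in the other 4 libraries. Aspn at 9 months stood at 116 CPM in replicate 1, against 64.3 to 78.4 CPM in the others.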

How the results depend on the processing

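The count of 4 members called at 9 months was 0 with the smooth muscle covariate and within 1.5 times under every other alternative, as was the count for any age (0 with that covariate). The share of all genes called under each alternative is not given here. At 12 months the count of 2 was 1 on the authors' log2 values, with no filter, with only the ages compared and without the lymph node libraries, and 0 with the oviduct covariate, the smooth muscle covariate and an adjusted p under 0.01. It was 3 with limma-voom and with the length and GC correction, where Dcn was added. With 1 library left out it ran from 0 to 3. The trend's count of 3 was 0 with the smooth muscle covariate, 1 at an adjusted p under 0.01 and 1 to 3 with 1 library left out. The count of 0 between 9 and 12 months ran from 0 to 3 with 1 library left out. The ratio of Lum to Fmod at 9 months was 0.86 (adjusted exact permutation p = 0.167) without the lymph node libraries. With 1 library of the ages compared left out it was 0.82 to 0.99, each time at an adjusted exact permutation p of 0.0952. With groups of 4 and 5 libraries the unadjusted p cannot fall below 0.0159. The ratio of Dcn to Bgn was -0.03 at 9 months without the lymph node libraries, and -0.01 to 0.26 at 12 months with 1 library left out.

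Of 1386 values of single members under alternatives, 69 changed sign, all for members called in none of those comparisons. The cause was not tested. At 12 months Ogn was -0.01 (authors' log2), -0.10 (oviduct) and -0.28 (smooth muscle), and Aspn -0.01 (oviduct) and -0.42 (smooth muscle). At 9 months Fmod was -0.02 (voom) and -0.14 (no lymph node), Ogn -0.11 (voom), -0.02 (authors' log2), -0.22 (no lymph node) and -0.33 (smooth muscle), and Aspn -0.34 (smooth muscle). Podn was -0.06 (voom), -0.03 (authors' log2), -0.32 (no lymph node), -0.06 (oviduct), -0.01 (smooth muscle) and -0.03 (length and GC). At 6 months Bgn was 0.00 (no lymph node), 0.05 (oviduct), 0.02 (smooth muscle) and 0.01 (length and GC), Prelp -0.05 (oviduct) and -0.01 (length and GC), Aspn -0.03 (smooth muscle) and Omd 0.08 (oviduct). From 9 to 12 months Ogn was -0.11 (oviduct), Aspn 0.02 (voom) and 0.23 (no lymph node) and Podn 0.12 (no lymph node). Along the trend Ogn was 0.11 (length and GC) and Aspn -0.44 (smooth muscle).

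With 1 library left out, Ogn ran from -0.21 to 0.22 at 12 months and -0.16 to 0.14 at 9 months, Fmod from -0.05 to 0.20 and Podn from -0.24 to 0.21 at 9 months. At 6 months Bgn ran from -0.05 to 0.04, Fmod from -0.20 to 0.03, Prelp from -0.10 to 0.08 and Omd from -0.20 to 0.04. From 9 to 12 months Ogn ran from -0.23 to 0.22 and Aspn from -0.27 to 0.10. Along the trend Ogn ran from -0.21 to 0.11 and Podn from -0.22 to 0.02.

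No paired analysis was possible because the labels give the ages no shared replicate numbers. Podn and Fmod, near 10 CPM, are the members with the fewest counts.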
